A study of Mus musculus with 4 samples.

Results

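Mbd4 and its relatives of the methyl-CpG binding domain family, Mbd1, Mbd2, Mbd3, Mbd5 and Mbd6, were followed in activated B lymphoma cells with and without Mbd4. The members were the transcript clusters (sets of probes read as 1 transcript unit) that the array platform's gene table pairs with a member symbol and no other. This gave 5 clusters, 1 each for Mbd4, Mbd1, Mbd2, Mbd3 and Mbd6, of 21789 clusters with a single symbol and 35556 clusters in all. Mbd5 had no such cluster in the table used and is not analysed here. RNA came from CH12.F3, a mouse B lymphoma line that switches from IgM to IgA in culture. It was read on 4 whole-transcript arrays, which form the groups control and Mbd4 KO with 2 arrays each. The culture medium of both groups held 6% serum, and both were stimulated over 24 hours by CD40L (25% by volume), TGFb (0.2 ng/ml) and IL4 (5 ng/ml), so every array is of activated cells. The sources used here do not say how the knockout was made, which part of the gene was lost, or whether the Mbd4 KO arrays stand for 1 clone or several. The p-values below therefore reflect how far these arrays scatter, possibly for technical reasons, and the loss of Mbd4 cannot be told apart from any other difference between the cell populations.

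The family is defined by a shared domain that in several members recognises CpG sites carrying methylated cytosine. Mbd1 and Mbd2 bind such sites and recruit repressors, whereas Mbd3 of mammals has largely lost the preference for methylated DNA and acts as a subunit of the NuRD remodelling and deacetylase complex, in which Mbd2 can take its place. Mbd5 and Mbd6 do not bind methylated DNA and associate with PR-DUB, a complex that removes ubiquitin from histone H2A. Mbd4 joins the domain to a DNA glycosylase that excises uracil or thymine paired wrongly with guanine and thus acts on the products of deamination of methylated and unmethylated cytosine. Uracil is also what the deaminase AID leaves in switch regions of activated B cells, which makes this enzyme of interest in a line that switches to IgA.

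The region around the start of Mbd4 is shown because the gene lies against a neighbour there, and the sequence around the start of Efcab12, the next gene on its other side, is shown because Efcab12 was the neighbour whose value passed the test. Both windows run 5′ to 3′ on the gene's own strand from 250 bases before to 50 bases after an annotated start, from RefSeq on GRCm38.p6. That start need not be the outer end of the gene's annotated bounds, and for Mbd4 it lies inside them. Capitals mark CpG, the dinucleotide that Mbd1, Mbd2 and Mbd4 bind when it is methylated. Windows were in the table for 4 of the 6 family genes.
Mbd4, chr6:115853292-115853591, minus strand: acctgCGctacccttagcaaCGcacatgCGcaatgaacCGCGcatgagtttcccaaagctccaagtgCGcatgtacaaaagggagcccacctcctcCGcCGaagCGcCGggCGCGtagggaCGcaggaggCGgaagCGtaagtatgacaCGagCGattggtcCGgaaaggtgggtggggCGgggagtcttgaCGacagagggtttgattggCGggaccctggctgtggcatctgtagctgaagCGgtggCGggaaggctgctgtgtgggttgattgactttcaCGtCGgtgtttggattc
Efcab12, chr6:115838363-115838662, minus strand: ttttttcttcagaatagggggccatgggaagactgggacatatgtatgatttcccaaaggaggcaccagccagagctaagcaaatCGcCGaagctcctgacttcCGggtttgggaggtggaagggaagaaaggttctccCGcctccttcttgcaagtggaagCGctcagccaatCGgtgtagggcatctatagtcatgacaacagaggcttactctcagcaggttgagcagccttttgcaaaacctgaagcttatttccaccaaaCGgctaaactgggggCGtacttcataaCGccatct
The Mbd4 window held 25 CpG sites and 60% G or C. The motif searched was CG, which reads the same on both strands and cannot overlap itself, and 18.4% of the 32851 promoter windows of this length held 25 or more. The Mbd3 window held 22 and the windows of 2 annotated Mbd6 starts held 28 and 44. The Efcab12 window held 9, against a median of 7 over all windows. These are counts of letters in the reference strain, and no methylation was measured. In the Mbd4 window, 213 of the 300 bases lie inside the annotated bounds of Ift122, which encodes an intraflagellar transport protein, and the annotated bounds of the 2 genes overlap by 22 bases.

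Mbd4 was low on both Mbd4 KO arrays and high on both control arrays. Its deposited log2 values were 8.74 and 8.77 on the control arrays and 6.47 and 6.49 on the Mbd4 KO arrays. The groups did not overlap, and the gap of 2.25 between their nearest arrays stood against gaps of 0.029 and 0.022 between arrays of the same group. The mean fell from 8.76 ± 0.021 to 6.48 ± 0.015 (log2, SD, n = 2 each), a difference of -2.28 (limma's moderated SE 0.066, 95% interval -2.44 to -2.12). On the scale of the deposited values this is 4.86-fold lower, with an interval from 4.34-fold to 5.43-fold. The interval covers the spread between arrays alone. If the Mbd4 KO values are background, the fold is a lower bound. The 5 T cell markers, genes not expected in a B cell line, lay between 5.14 and 7.01 on these arrays. Each gene has its own probes, so this range does not give the floor of the Mbd4 cluster. Limma's adjusted p was 0.0002 (Benjamini-Hochberg adjustment over the 21789 clusters, two-sided, threshold 0.05). The order of the 4 arrays thus followed their labels. Of all clusters, 1.39% passed this test in either direction, 0.431% as higher and 0.955% as lower.

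The fall of Mbd4 was the eighth largest by rank among 21789 clusters, and 0.0413% of clusters had a larger difference in either direction. The Mbd4 cluster ranked between the 41.2 and the 71.1 percentile of the 35556 values of an array, from its lowest to its highest array. Whether the remaining value of 6.48 is signal or background could not be judged, and the sources used here do not say whether its probes lie inside the deleted part. Without moderation of the variance, where each cluster has 2 residual degrees of freedom of its own, the same difference had an adjusted p of 0.153 (unadjusted p = 6.32e-05) and was not called by that limma fit, and neither was any other cluster, although 2469 had an unadjusted p under 0.05. An exact permutation test of 4 arrays cannot give a p below 0.333, which is the value it gave for Mbd4.

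**Figure D1:**
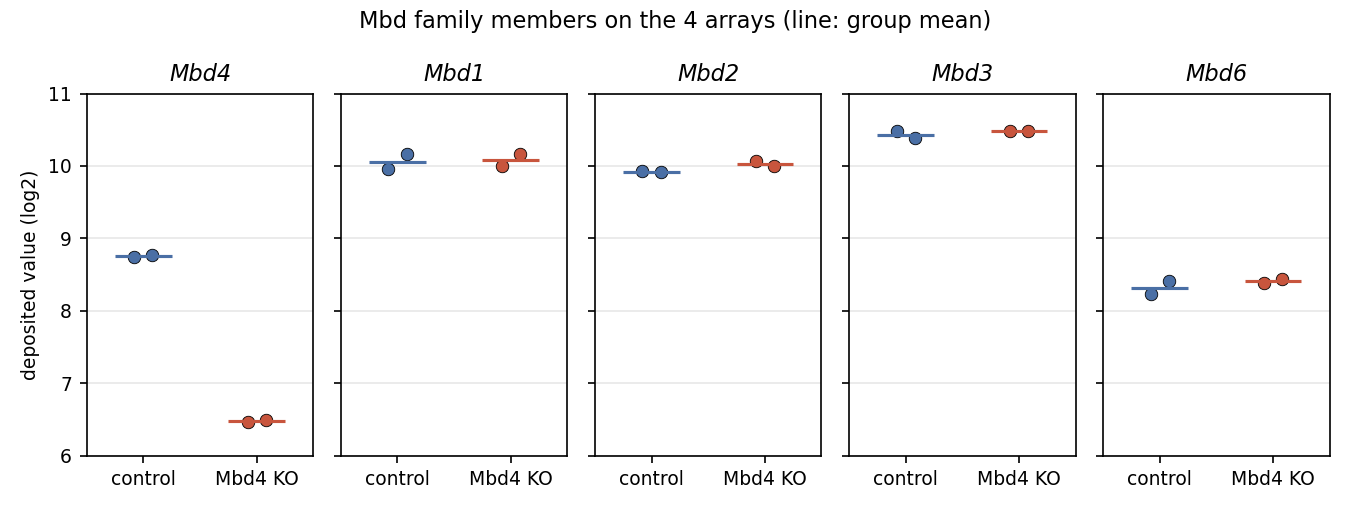
Deposited log2 values of Mbd4, Mbd1, Mbd2, Mbd3 and Mbd6 (1 panel each) on the 2 control arrays (blue) and the 2 Mbd4 KO arrays (red), with a line at each group's mean. Mbd4 drops from 8.76 to 6.48, while the means of each relative lie within 0.11 of each other; heights should not be compared between panels, since each gene has its own probes.

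None of the 4 measured relatives passed limma's test, and none had an unadjusted p under 0.05 in that fit, as 13.8% of all clusters did, or without moderation, as 11.3% did. Their differences lay between 0.025 and 0.11 (log2, Mbd4 KO minus control), with a median of 0.07. All 4 values were above zero, as were 57.9% of the 19938 genes tested, whose median was 0.023 with 1 value per gene.

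Mbd2, a reader of methylated CpG that can recruit NuRD, had the largest difference among the relatives. Its values were 9.92 and 9.92 on the control arrays and 10.06 and 10.00 on the Mbd4 KO arrays. The groups were separated by 0.08. Groups that do not overlap were found for 45% of all clusters, and for 26.7% with the Mbd4 KO arrays higher. The difference of 0.11 (SE 0.067, 95% interval -0.053 to 0.28) had a limma adjusted p of 0.532. Of all clusters, 37.1% had a larger absolute difference.

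Mbd3, the NuRD subunit, gave 10.48 and 10.38 on the control arrays against 10.48 and 10.48 on the Mbd4 KO arrays. The higher control array and the lower Mbd4 KO array differed by 0.0008, so that the groups touched without overlapping. The difference was 0.048 (SE 0.07, 95% interval -0.12 to 0.22, limma adjusted p = 0.816). It rested on control array 2, without which it was 0.0015.

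Mbd1, which represses genes with the histone methyltransferase Setdb1, gave 9.96 and 10.16 on the control arrays against 10.00 and 10.17 on the Mbd4 KO arrays. The arrays of a group were further apart, by 0.207 and 0.166, than the group means, and the groups overlapped. The difference was 0.025 (SE 0.1, 95% interval -0.22 to 0.27, limma adjusted p = 0.948), and its sign changed without control array 1 (-0.079) or Mbd4 KO array 2 (-0.058).

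Mbd6, the PR-DUB associated member, gave 8.23 and 8.41 on the control arrays against 8.39 and 8.43 on the Mbd4 KO arrays. The groups overlapped. The difference was 0.092 (SE 0.083, 95% interval -0.11 to 0.29, limma adjusted p = 0.69). Without control array 1, the lowest of the 4, it was 0.0054.

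The intervals give the range of differences that the spread between these arrays allows. Taken gene by gene, their upper ends correspond to rises of 1.21-fold for Mbd1, 1.21-fold for Mbd2, 1.17-fold for Mbd3 and 1.23-fold for Mbd6. Their lower ends correspond to decreases of 1.17-fold, 1.04-fold, 1.09-fold and 1.08-fold in the same order. No relative's interval reached that of Mbd4, which ended at -2.12. A p above the threshold does not show that these levels are equal. Nor are these bounds a limit of detection with 2 arrays a group, since larger differences also missed limma's adjusted threshold. The B cell marker gene Cd22, for example, differed by 0.44 (SE 0.0836) with a limma adjusted p of 0.0843.

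**Figure D2:**
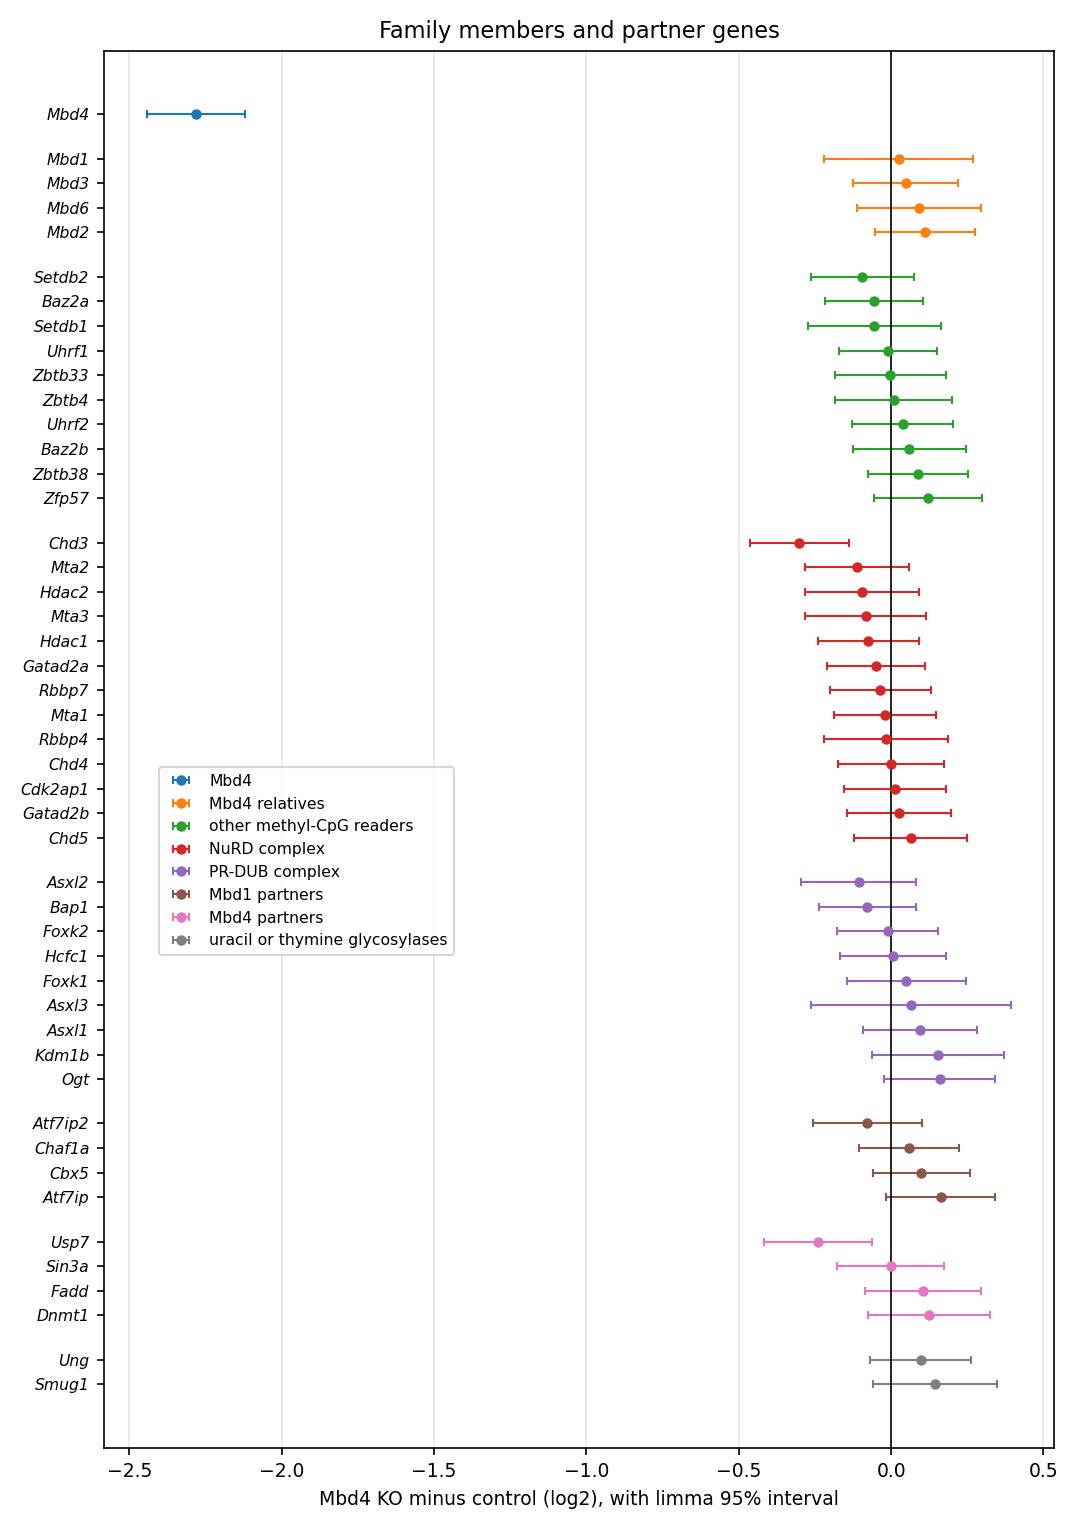
Difference between Mbd4 KO and control cells (log2, x axis) for Mbd4, its 4 measured relatives and the genes of 6 partner lists, with limma's 95% interval as a bar; a gene in more than 1 list is drawn once, in the first list that holds it. Mbd4 lies at -2.28, while the other genes lie between -0.30 (Chd3) and 0.16 (Atf7ip).

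Genes that work with the family were taken as 6 lists. With each gene taken at its brightest cluster, 1.37% of all genes were called by limma, 0.451% higher and 0.923% lower. The median of all genes was 0.023, and 57.9% were above zero. No member of the 6 lists passed over all genes, and at an unadjusted p under 0.05 there were Chd3 in the NuRD list and Usp7 in the list of Mbd4 partners. Of all 19938 genes, 2786 (14%) were under that p in this fit, the share against which the counts below stand.

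Other readers of methylated CpG had 0 of 10 measured members called by limma, with 0 at an unadjusted p under 0.05. Their median was 0.0033, with 5 above and 5 below zero, and their range was -0.094 to 0.12. The ends of that range were Setdb2, a histone methyltransferase gene with a domain of the MBD kind (-0.094, adjusted p = 0.611), and Zfp57, a zinc finger gene that keeps methylation at imprinted loci (0.12, adjusted p = 0.529). The values of Zfp57, 5.79 to 5.99, lay within the range of the 5 T cell markers (5.14 to 7.01) and may be background. Uhrf1, whose product reads hemimethylated CpG at replication forks, differed by -0.01, and Zbtb33, which encodes Kaiso, by -0.0027.

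The NuRD list, which holds the partners of Mbd2 and Mbd3, had 0 of 13 members called by limma. Its median was -0.035, with 3 members above and 10 below zero, while 57.9% of all genes were above zero. The list was not tested as a set. Chd3, a remodelling ATPase gene of the complex, had values of 9.37 ± 0.035 in control and 9.07 ± 0.019 in Mbd4 KO cells (log2, SD, n = 2 each), a difference of -0.30 (SE 0.067, limma adjusted p = 0.123). It was called with an intensity trend in limma's prior (adjusted p = 0.0192), and adjusted p ranged up to 0.409 over the other alternatives. The fit with that trend called 1121 of the 21789 clusters, against 302 in the fit as reported. Chd4, the other widely expressed ATPase gene of the complex, differed by -0.00025 (adjusted p = 0.999). Mta2, a scaffold subunit gene, differed by -0.11 (adjusted p = 0.545), and the deacetylase genes Hdac1 and Hdac2 by -0.075 and -0.095, neither called.

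The PR-DUB list, with the partners of Mbd5 and Mbd6, had 0 of 9 called by limma and 0 at an unadjusted p under 0.05, with a median of 0.05 and a range of -0.11 to 0.16. Ogt, the O-GlcNAc transferase gene, differed by 0.16 (adjusted p = 0.422), Kdm1b, a histone demethylase gene, by 0.15 (adjusted p = 0.515), and Bap1, the deubiquitinase gene of the complex, by -0.078 (adjusted p = 0.665).

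Among Mbd1 partners, 0 of 5 measured genes were called by limma and 0 had an unadjusted p under 0.05, with a median of 0.06. Atf7ip, which encodes the factor that links Mbd1 to Setdb1, differed by 0.16 in its brighter cluster (adjusted p = 0.403) and by 0.27 in its other cluster (adjusted p = 0.209). That other cluster had a limma unadjusted p of 0.0126. It is outside the counts above, which take each gene at its brightest cluster. Of all clusters, 13.8% had an unadjusted p under 0.05 in this fit. Cbx5, the gene of heterochromatin protein HP1 alpha, differed by 0.099 (adjusted p = 0.568), and Setdb1 itself by -0.055 (adjusted p = 0.841).

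Among Mbd4 partners, 0 of 6 measured genes were called by limma, with a median of -0.0053. Usp7, a deubiquitinase gene, had values of 11.71 ± 0.025 in control and 11.47 ± 0.073 in Mbd4 KO cells (log2, SD, n = 2 each), a difference of -0.24 (SE 0.072, limma adjusted p = 0.232). It was called with an intensity trend (adjusted p = 0.0121), and over the other alternatives adjusted p ranged up to 0.517. With that trend 1121 of the 21789 clusters were called, against 302 in the fit as reported. Usp7 lies on chromosome 16, where the median over 649 genes was -0.113 and 37 genes were called in the fit as reported. The part of this in the value of Usp7 was not tested. Dnmt1, the maintenance methyltransferase gene, differed by 0.12 (adjusted p = 0.567) and Fadd, an adaptor gene of death receptors, by 0.10 (adjusted p = 0.619). The other glycosylase genes that act on uracil had no call among 2 measured of 3 listed, and 0 at an unadjusted p under 0.05. Smug1 differed by 0.15 (adjusted p = 0.512) and Ung by 0.098 (adjusted p = 0.59). The values of Smug1, 6.35 to 6.59, lay within the range of the 5 T cell markers (5.14 to 7.01), and those of Ung, 8.84 to 8.98, above it. Whether the Smug1 values are signal or background could not be judged.

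The genes on either side of Mbd4 on chromosome 6 were followed because a knockout can touch them. Among the 5 named genes on each side, 7 had a cluster of their own. Ift122, whose annotated bounds overlap those of Mbd4 and which holds most of the printed Mbd4 window, gave 7.96 and 7.90 on the control arrays against 7.85 and 7.74 on the Mbd4 KO arrays. It was lower on both Mbd4 KO arrays, as were 18.3% of all clusters. The difference was -0.13 (SE 0.074, 95% interval -0.31 to 0.048, limma adjusted p = 0.5), against -2.28 for Mbd4.

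Efcab12, an EF-hand domain gene, lies on the same strand as Mbd4, with 2119 bases between their annotated bounds, and follows it in the direction of transcription. Its values were 6.41 and 6.20 on the control arrays against 6.94 and 7.11 on the Mbd4 KO arrays, with no overlap. All of them but 7.11 lay within the range of the 5 T cell markers (5.14 to 7.01). The value of 7.11 lay within the range of the 5 fibroblast markers (4.908 to 7.655). Whether the Efcab12 values are signal or background could not be judged. Efcab12 rose by 0.72 (log2, SE 0.101, 95% interval 0.47 to 0.97), 1.65-fold, with a limma adjusted p of 0.0413. That call was lost, with differences between 0.62 and 0.82, when any 1 array was left out (adjusted p = 0.0904 to 0.198), with the replicate number as a block (0.0874), with quantile (0.0542) or cyclic loess (0.0559) normalization, with all clusters of the table (0.194) and without moderation (0.4). The Efcab12 call was kept with an intensity trend (limma adjusted p = 0.00298), with a robust prior (0.0433) and without the dimmest 30% of clusters (0.0146). Snora7a, which encodes a guide RNA of the nucleolus, gave 10.49 and 10.53 against 10.65 and 10.76, a difference of 0.20 (limma unadjusted p = 0.0351, adjusted p = 0.315). With Efcab12, 2 of the 7 measured neighbours had an unadjusted p under 0.05, as did 14% of all genes. The 4 remaining neighbours, Cand2, H1f8, Plxnd1 and Tmcc1, differed by between -0.075 and 0.08 and were not called.

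**Figure D3:**
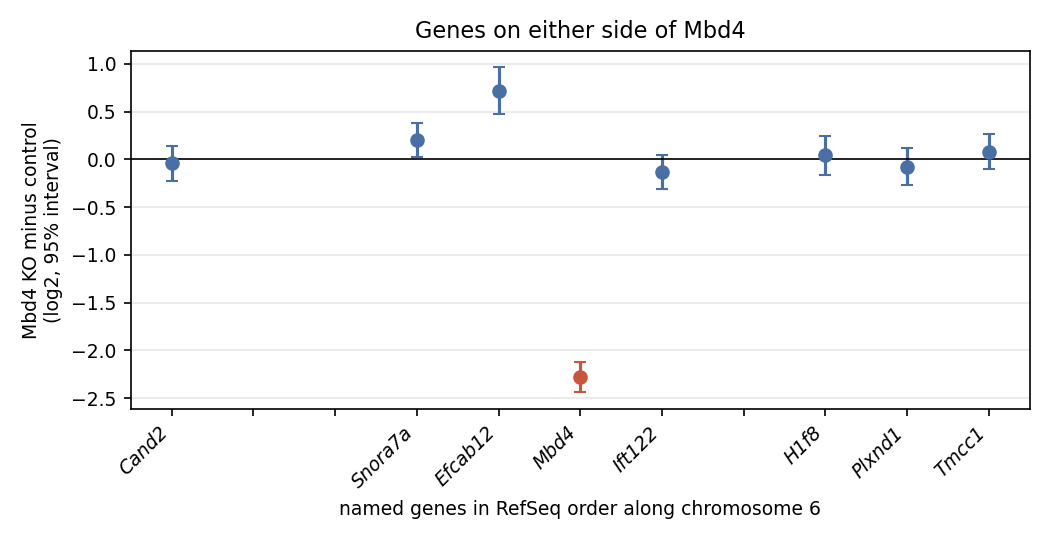
Difference between Mbd4 KO and control cells (log2, y axis, bars limma's 95% intervals) for Mbd4 (red) and the named genes beside it (blue) in their order along chromosome 6, with unlabelled places for genes not analysed here. Mbd4 lies at -2.28 between Efcab12 at 0.72 and Ift122 at -0.13.

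The genes whose profile was most like that of Mbd4 were found by the root mean square distance over the 4 arrays, after each gene's own mean was subtracted. They were Igf2r (distance 0.0646), Adgrl2 (0.0942), Gnat3 (0.115), Cd200r1 (0.147) and Arhgap29 (0.147). Igf2r, the gene of a receptor that clears insulin-like growth factor 2, gave 9.60 and 9.59 on the control arrays against 7.33 and 7.48 on the Mbd4 KO arrays. Adgrl2, a latrophilin adhesion receptor gene, gave 10.69 and 10.79 against 8.56 and 8.33 in its brightest cluster. Gnat3, a G protein alpha subunit gene of taste cells, gave 8.10 and 8.19 against 6.13 and 5.94. Each was high on both control arrays and low on both Mbd4 KO arrays, which is what the choice by likeness requires, so no test is attached. They lie on chromosomes 17, 3, 5, 16 and 3 in the order named, and Mbd4 on chromosome 6. Cd200r1, an inhibitory receptor gene, and Arhgap29 differed by -2.56 each, Adgrl2 by -2.30, Igf2r by -2.19 and Gnat3 by -2.11, against -2.28 for Mbd4.

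**Figure D4:**
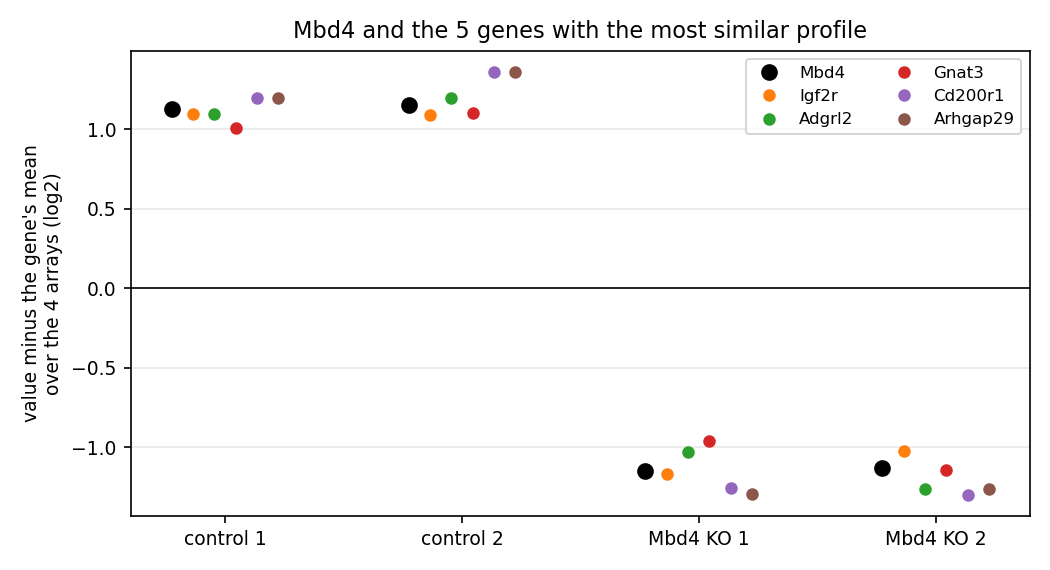
Value of each gene minus its own mean over the 4 arrays (log2, y axis) on the 2 control and 2 Mbd4 KO arrays, for Mbd4 (black) and the 5 genes with the most similar profile (colours). All 6 genes lie above zero on the control arrays and below zero on the Mbd4 KO arrays, with distances from Mbd4 of 0.0646 to 0.147.

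The labelled cell type was checked with marker genes. The 7 measured B cell markers of 8 listed lay between 10.05 and 12.68, and their mean per array was 11.11 to 11.13 in control and 11.18 to 11.22 in Mbd4 KO cells. The mean per array of 5 T cell markers was 6.18 to 6.19 in control and 6.20 to 6.22 in Mbd4 KO cells, that of 5 fibroblast markers 6.82 to 6.83 and 6.71 to 6.77, and that of 5 myeloid markers 6.44 to 6.49 and 6.30 to 6.34. The myeloid marker gene Adgre1 fell by 1.06 (SE 0.0697, limma adjusted p = 0.00311), and the other 21 markers of the 4 lists were not called. Of all genes, 1.37% were called. At a limma unadjusted p under 0.05 there were 2 of 7 B cell, 1 of 5 T cell, 2 of 5 myeloid and 1 of 5 fibroblast markers. Of all genes, 14% were under that p. Besides Adgre1 these markers were Cd22 (0.44), Blk (0.31), Cd3g (0.42), Lyz2 (0.24) and Pdgfrb (-0.52). Array medians over all 35556 values lay between 6.944 and 6.978.

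The difference of Mbd4 stayed between -2.31 and -2.27 under all 12 alternatives, and 11 of them called it by limma, the exception being the fit without moderation. For the relatives the lowest and highest differences over the 12 alternatives were -0.079 and 0.13 for Mbd1, 0.082 and 0.14 for Mbd2, 0.0015 and 0.095 for Mbd3, and 0.0054 and 0.18 for Mbd6, with no call in any of them.

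**Figure D5:**
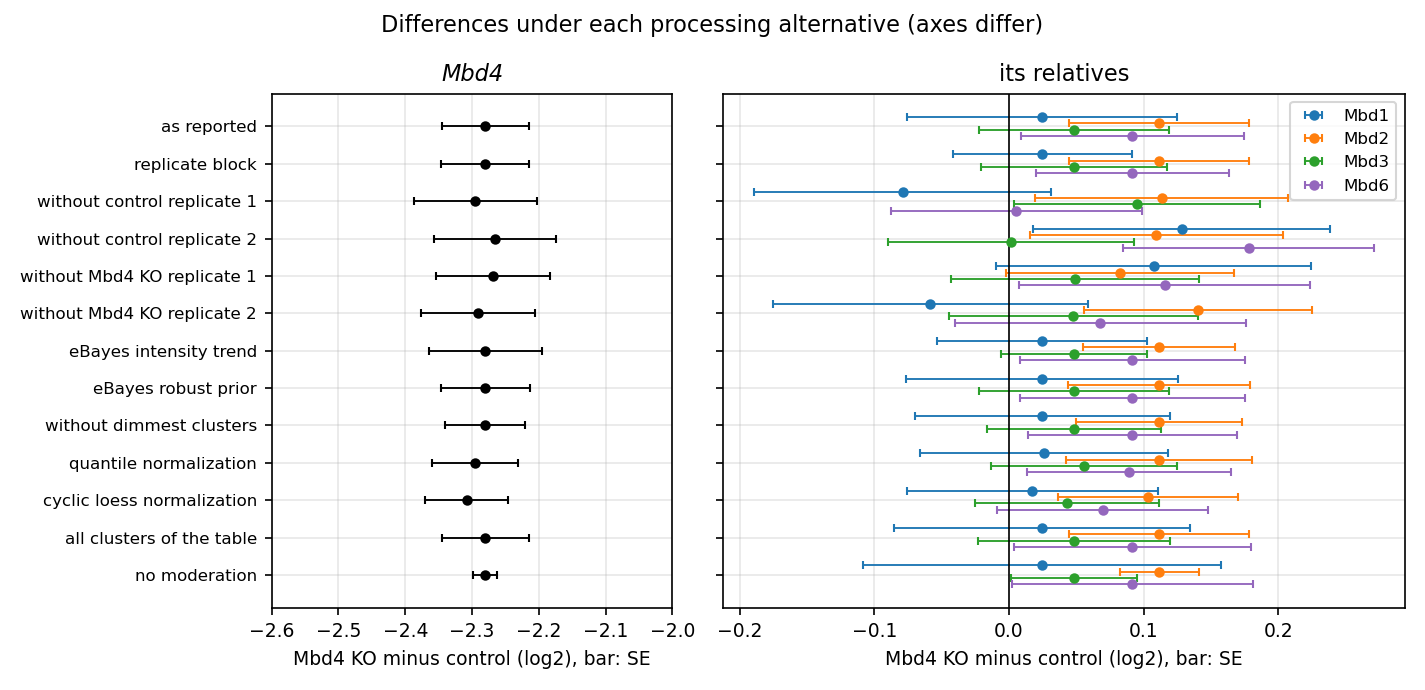
Difference between Mbd4 KO and control cells (log2, x axis, bars SE) as reported and under each of 12 processing alternatives (rows), for Mbd4 (left) and its 4 measured relatives (right); the scales of the 2 panels differ. Mbd4 stays between -2.31 and -2.27, and the relatives stay between -0.079 and 0.18.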

How the data were processed

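The deposited values are log2 values, 1 per transcript cluster and array. Per the submitters' processing notes they were made with RMA (background correction, quantile normalization and a summary of the probes of a cluster). Not given in the sources used here are the software, its version and settings and the array's genome build. The log2 scale was read from the values. No raw intensities were used, so signal over background could not be judged.

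Clusters with exactly 1 symbol in the platform's gene table (21789, 19938 genes) were fitted in R 4.3.3 using limma 3.58.1 (lmFit, then eBayes without trend or robust prior, 4 prior and 2 residual degrees of freedom). Benjamini-Hochberg adjustment ran over all of them, with no filter and no further normalization. The fit was tested on simulated data. The number of arrays limits the precision.

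Members and lists were chosen with earlier results of these data known. Named are all members, the called genes and the 2 largest differences in each list, the 5 genes most like Mbd4, and further list members given as examples after their values were seen. "Named" neighbours exclude Gm, Rik and LOC symbols. Listed genes without a cluster under their symbol alone in the tables used are not analysed here. Alternatives were the replicate block, each array left out, a trend or robust prior, removal of the dimmest 30% of clusters, quantile or cyclic loess normalization, all clusters, no moderation and, for lists, the mean of a gene's clusters. Figures were drawn with matplotlib 3.10.9.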

Additional observations from a re-analysis of the deposited data

How the results depend on the processing

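With 2 arrays a group, changes the size of those in the relatives of Mbd4 could not be told from zero. Without moderation the difference of Mbd4 was still -2.28 but was not called by limma (adjusted p = 0.153). That of Mbd1 changed sign to -0.079 without control array 1 and -0.058 without Mbd4 KO array 2, and ranged from -0.079 to 0.13 with 1 array left out. The number of clusters called, 302, was 159 with the replicate number as a block, 65 to 75 with 1 array left out, 1121 with an intensity trend, 640 without the dimmest 30% of clusters, 22 with all clusters of the table and 0 by limma without moderation (2469 at an unadjusted p under 0.05). The NuRD list and the Mbd4 partners each had 1 member called with the trend, against 0. The list of genes next to Mbd4 had 0 called, against 1, with the block (Efcab12 adjusted p = 0.0874), with any 1 array left out (0 to 0), with quantile or cyclic loess normalization, with all clusters of the table and without moderation. The cause of these changes was not tested. Samples with the same replicate number were not shown to be paired: their deviations from the group means correlated at 0.0831, and the block changed no call of a family member (Mbd4 adjusted p = 0.00173).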
